A study of Mus musculus with 15 samples.

Results

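Members of the miR-34 and miR-449 family and of the miR-204 and miR-211 family were followed across midbrain libraries of wild-type and A30P alpha-synuclein mice. Members were taken by name alone, as every listed arm of miR-34a, miR-34b, miR-34c, miR-449a, miR-449b, miR-449c, miR-204 or miR-211. Of the 396 mature miRNAs in the deposited table, 6 matched: mmu-miR-34a-5p, mmu-miR-34b-3p, mmu-miR-34c-5p, mmu-miR-34c-3p, mmu-miR-204-5p and mmu-miR-204-3p, written without the species prefix from here on. Arms of miR-449 and miR-211 were not listed and are not analysed here. The series is a small RNA sequencing study of midbrain tissue from C57BL/6 mice aged 6 months, with 8 wild-type samples (WT, replicates 1 to 8) and 7 samples whose genotype is labelled A30P alpha-synuclein +/+ (replicates 1, 2, 3, 4, 6, 7 and 8). A30P is an amino acid change found in familial Parkinson's disease, and alpha-synuclein is abundant at presynaptic terminals. The promoter that drives the A30P protein in these mice is not stated in the labels. Since no label ties a sample to an animal of its own, the p-values measure the spread between samples, part of which may be technical.

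miRNAs are short RNAs that, loaded into Argonaute, pair through a seed near their 5′ end with target mRNAs and lower their output. The miR-34 and miR-449 miRNAs share a seed and are required together for multiciliated cells, which in brain are the ependymal cells lining the ventricles. p53 activates transcription of miR-34a and of the miR-34b/34c transcript, and both are also made in neurons. miR-204 is made from an intron of Trpm3, a cation channel gene, and is known for high levels in choroid plexus and retinal pigment epithelium. miR-211, its close relative, comes from an intron of Trpm1. Each hairpin gives a 5p and a 3p strand, and usually one of them is retained far more than the other.

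The mature sequences below show which arms share a seed and which relatives carry the same seed. They are RefSeq sequences on GRCm38.p6, written 5′ to 3′ with the seed (bases 2 to 8) in capitals, and 5 of the 6 members matched an entry. miR-34b-3p and miR-34c-3p share the seed AUCACUA and differ at 5 of 22 bases (U11C, C12A, U16A, U21G and C22G, counted from the 5′ end, with the base of miR-34b-3p first). miR-34a-5p has the same seed as miR-449a-5p, and miR-204-5p the same as miR-211-5p, from which it differs at 1 of 22 bases (A17U, with the base of miR-204-5p first). miR-449a-5p and miR-211-5p are shown as relatives and were not among the listed miRNAs. The miR-204 hairpin is given with both mature arms in capitals, since the balance of those arms is described further on.
miR-34a-5p: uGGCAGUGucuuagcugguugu
miR-449a-5p: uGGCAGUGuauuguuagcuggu
miR-34b-3p: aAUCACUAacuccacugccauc
miR-34c-3p: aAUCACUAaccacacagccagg
miR-204-5p: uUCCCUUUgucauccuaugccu
miR-211-5p: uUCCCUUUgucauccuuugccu
miR-204-3p: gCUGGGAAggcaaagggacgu
Mir204 hairpin: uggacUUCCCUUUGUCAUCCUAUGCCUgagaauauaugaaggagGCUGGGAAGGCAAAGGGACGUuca

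The 6 arms come from 4 hairpins at 3 places in the genome. On GRCm38, Mir34b (chr9:51103562-51103645, minus strand) and Mir34c (chr9:51103034-51103110, minus strand) lie 451 bases apart. Both stand inside the gene Btg4 on the opposite strand, outside its exons. Mir34a (chr4:150068454-150068555, plus strand) overlaps an exon of Gm37795, which GENCODE gives the type TEC. Mir204 (chr19:22750605-22750672, plus strand) lies in an intron of Trpm3, on the same strand. These positions are those of the reference, since the submitters' processing notes name mm9.

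The libraries differed widely in depth, which touches every comparison of genotypes. Reads of listed miRNAs numbered 724813 to 9762286 in WT and 21731 to 3500431 in A30P, with medians of 5081436.5 and 92827. WT replicates 1 and 8 were the shallowest of their group, with 724813 and 1326236 reads. A30P replicate 6 was the deepest of its group, and replicates 4, 7, 1 and 2 each held under 100000 reads. A single read was worth 56.4 normalized counts in A30P replicate 4 and 0.0848 to 0.806 in WT, so a listing at 0 in A30P replicate 4 allows a level of up to 169 (3 reads, counting error only). The library column names carry one letter tag in WT and another in A30P, so a batch behind that tag and the genotype cannot be told apart. In bulk tissue, fewer cells of a type and less of a miRNA per cell cannot be told apart either.

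In WT midbrain miR-204-5p was the most abundant member. Its normalized count (reads divided by a library size factor, by the authors) had a lowest value of 994, a median of 1312 and a highest of 3338. miR-34c-5p followed with 16.1, 260 and 1175, a 72.9-fold span between its lowest and highest library against 3.36-fold for miR-204-5p. The passenger strand of miR-204, miR-204-3p, had 44.4, 66.5 and 217. miR-34b-3p had 35.6, 66.5 and 470, so the medians of miR-204-3p and miR-34b-3p were alike. miR-34a-5p had 1.88, 30.6 and 96.9. miR-34c-3p, the passenger strand of miR-34c, was lowest, with 0, 7.52 and 32.4 and reads in 7 of 8 libraries. The 5 arms with a RefSeq entry are 21 or 22 bases long, and a kit's preference for some ends was not tested.

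Neighbours in this order were compared within libraries by an exact two-sided sign-flip test on log2(value + 1), with 5 comparisons adjusted by Benjamini-Hochberg. The order came from the medians of the same WT libraries, so which pairs were compared was not fixed beforehand. The smallest p that 8 libraries allow is 0.00781. miR-204-5p exceeded miR-34c-5p in 8 of 8 WT libraries (mean log2 difference 2.87 ± 1.69, SD; exact p = 0.00781, adjusted 0.0391). miR-34c-5p exceeded miR-204-3p in 6 of 8 (exact p = 0.25), and miR-204-3p exceeded miR-34b-3p in 3 of 8 (exact p = 0.8125). miR-34b-3p exceeded miR-34a-5p in 7 of 8 (exact p = 0.0391, adjusted 0.0651), and miR-34a-5p exceeded miR-34c-3p in 6 of 8 (exact p = 0.0313, adjusted 0.0651). Past miR-204-5p, none of the 4 pairs of neighbours compared differed beyond the spread between libraries once adjusted, and members farther apart in the order were not compared.

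**Figure D1:**
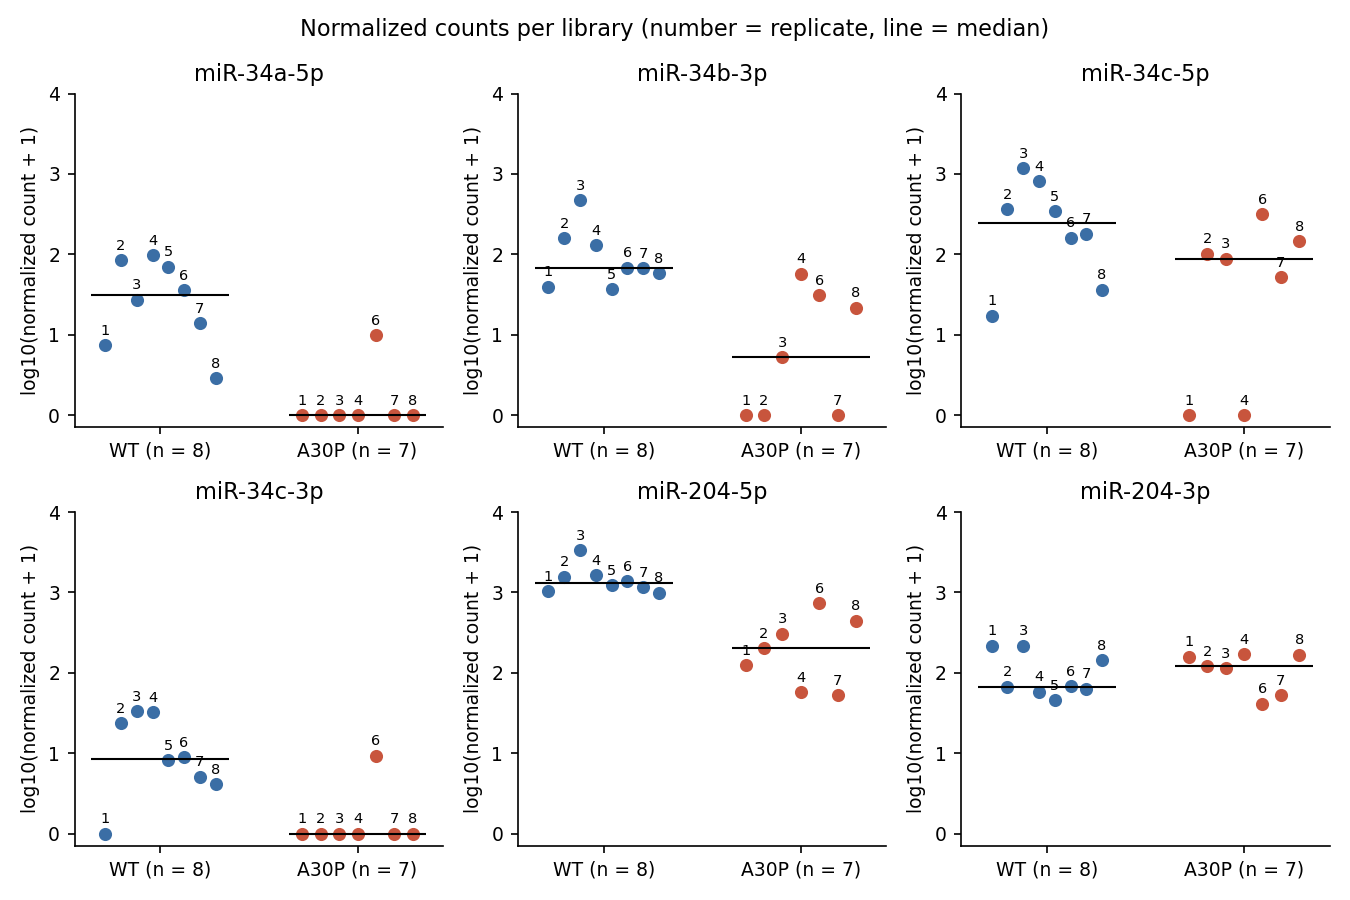
Each panel plots log10(normalized count + 1) of 1 miRNA for every WT (blue, n = 8) and A30P (red, n = 7) library, labelled by replicate, with the group median as a line. miR-204-5p is the member whose groups stand fully apart, miR-34a-5p and miR-34c-3p lie at 0 in all A30P libraries but replicate 6, and the groups of miR-204-3p overlap.

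miR-204-5p, the dominant strand of its hairpin and the arm known from choroid plexus, fell in A30P midbrain. Its A30P libraries had a lowest normalized count of 51.2, a median of 201 and a highest of 734. The highest A30P library, replicate 6, lay below the lowest WT library at 994, so the groups did not overlap. Such separation in this direction was seen for 23.7% of all miRNAs (94 of 396). The mean was 1545 ± 761 in WT (SD, n = 8) and 274 ± 247 in A30P (SD, n = 7), and limma on log2(value + 1) gave a log2 fold change of -2.95 (SE 0.56, adjusted p = 0.000124). Within A30P the level of miR-204-5p moved with the depth of the library (Pearson r = 0.962 with log10 listed reads, exact permutation p = 0.000794, adjusted 0.00794 over 10 such relations, Spearman rho = 0.964, exact p = 0.00278, n = 7). Without the 2 libraries farthest from the median depth r was 0.962, and the part of depth in the lower A30P level was not tested beyond the fits below.

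The opposite strand of the same hairpin, miR-204-3p, did not pass the test. It had 40.4, 121 and 169 normalized counts as lowest, median and highest in A30P, inside or near the WT range of 44.4 to 217. Its means were 109 ± 72.4 in WT and 117 ± 53.5 in A30P, a log2 fold change of 0.18 with an SE of 0.64 by limma (adjusted p = 0.799). In A30P replicates 4 and 7 its level rested on 3 reads and 1 read.

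miR-34a-5p, a direct p53 target that is also expressed in neurons, fell in A30P. It had reads in 8 of 8 WT libraries but in only 1 of 7 A30P libraries, replicate 6, at 8.88 normalized counts. At the mean WT share 1.14 and 1.44 reads would have been found in A30P replicates 4 and 7, and 3.42 and 4.88 in replicates 1 and 2. In replicates 3 and 8 it would have been 18.7 and 23.2, so their zeros lie farthest under the mean WT share. At the lowest WT share fewer than 3 would have been found in every A30P library but replicate 6. Against that share the zeros do not show that miR-34a-5p was lacking. The value in replicate 6 lies above WT replicates 1 and 8 (6.45 and 1.88), so the groups overlap. The means were 41.4 ± 36.7 and 1.27 ± 3.36, and limma gave a log2 fold change of -4.19 (SE 0.77, adjusted p = 9.7e-05), whose size depends on the pseudocount, from -6.94 with 0.1 to -1.84 with 10.

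miR-34b-3p, from the cluster shared with miR-34c, fell as well. Its A30P libraries had 0, 4.26 and 56.4 as lowest, median and highest, with reads in 4 of 7. The highest, replicate 4, was a single read, and it exceeded the lowest WT library at 35.6. The means were 127 ± 145 and 15.9 ± 21.4, and limma gave it a log2 fold change of -3.95 with an SE of 0.98 (adjusted p = 0.00131), or -5.41 and -2.34 with pseudocounts of 0.1 and 10.

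Of the 2 strands of miR-34c, the 3p strand passed the test and the 5p strand did not. miR-34c-5p, the strand with the miR-34 family's shared activity in ciliated cells, had 0, 87.4 and 315 as lowest, median and highest in A30P, with reads in 5 of 7 libraries. Its groups overlapped across most of their range, and its means of 385 ± 407 and 99.7 ± 109 gave a log2 fold change of -2.71 (SE 1.30, adjusted p = 0.0628 by limma). Its call turns on single libraries: it passed without WT replicate 1 (-3.21, adjusted p = 0.0291), WT replicate 8 (-3.06, 0.0433), A30P replicate 6 (-3.27, 0.0334) or A30P replicate 8 (-3.09, 0.0474) by limma. miR-34c-3p had reads in A30P replicate 6 alone, at 8.36 normalized counts, and means of 13.6 ± 13.1 and 1.19 ± 3.16. It fell by 2.69 on the log2 scale (SE 0.71, adjusted p = 0.00203 by limma), with values of -5.01 and -0.92 at pseudocounts of 0.1 and 10. Its WT mean is less than 1 read was worth in the 4 A30P libraries under 100000 reads.

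Over all 6 members, which passed the filter on low values in both groups, 4 were lower, 0 were higher and 2 did not pass. Of all listed miRNAs 79.3% were called in this fit, 71% lower and 8.33% higher, so 4 of 6 is near the background. The members' median log2 fold change was -2.83 and that of all miRNAs -2.57. Read against that shift, miR-34a-5p stood 1.61 and miR-34b-3p 1.37 below the median of all miRNAs on the log2 scale, and miR-204-3p stood 2.76 above it. These distances hold for the pseudocount of 1. For miR-34c-5p, miR-34c-3p and miR-204-5p the distance from that median was -0.13, -0.12 and -0.38.

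Fits that treat depth in other ways kept the sign of 5 members but not every call. By edgeR's quasi-likelihood test with TMM scaling on the recovered whole reads, 2 of 6 members were lower, against 35.5% lower and 19.5% higher (55% in all) of the 318 miRNAs tested: miR-34a-5p (-1.91, adjusted p = 0.0295) and miR-34b-3p (-1.60, adjusted p = 0.0349). miR-204-5p narrowly missed there (-1.16, adjusted p = 0.0521 by edgeR), and miR-34c-5p (-0.18, 0.820) and miR-34c-3p (-0.36, 0.659) lay near 0. miR-204-3p was at 0.98 in edgeR (adjusted p = 0.151), and at -0.50 (adjusted p = 0.505) in limma once values were scaled to the total of listed reads. By limma with the 3 A30P libraries over 100000 reads, miR-34a-5p (-3.56, adjusted p = 0.0131), miR-34b-3p (-2.54, 0.0146) and miR-204-5p (-1.62, 0.00590) passed, while miR-34c-5p (-0.29, 0.831) and miR-34c-3p (-2.08, 0.0913) did not. In limma the median of all miRNAs shifted by 0.74 under TMM scaling and by -0.35 when values were scaled to the total.

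Of the 6 members, the authors' deposited table called miR-204-3p alone, as lower (log2 fold change -1.31, adjusted p = 0.0455), beside 34.1% of all miRNAs called lower there. The authors' deposited table gave miR-34c-5p a log2 fold change of 1.10 (adjusted p = 0.287). For both arms that sign is opposite to the one computed here from the deposited normalized counts. In the authors' deposited table miR-204-5p had -0.90 (adjusted p = 0.165), miR-34b-3p -1.66 (0.0801), miR-34a-5p -1.05 (0.2995) and miR-34c-3p -0.07 (0.960).

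**Figure D2:**
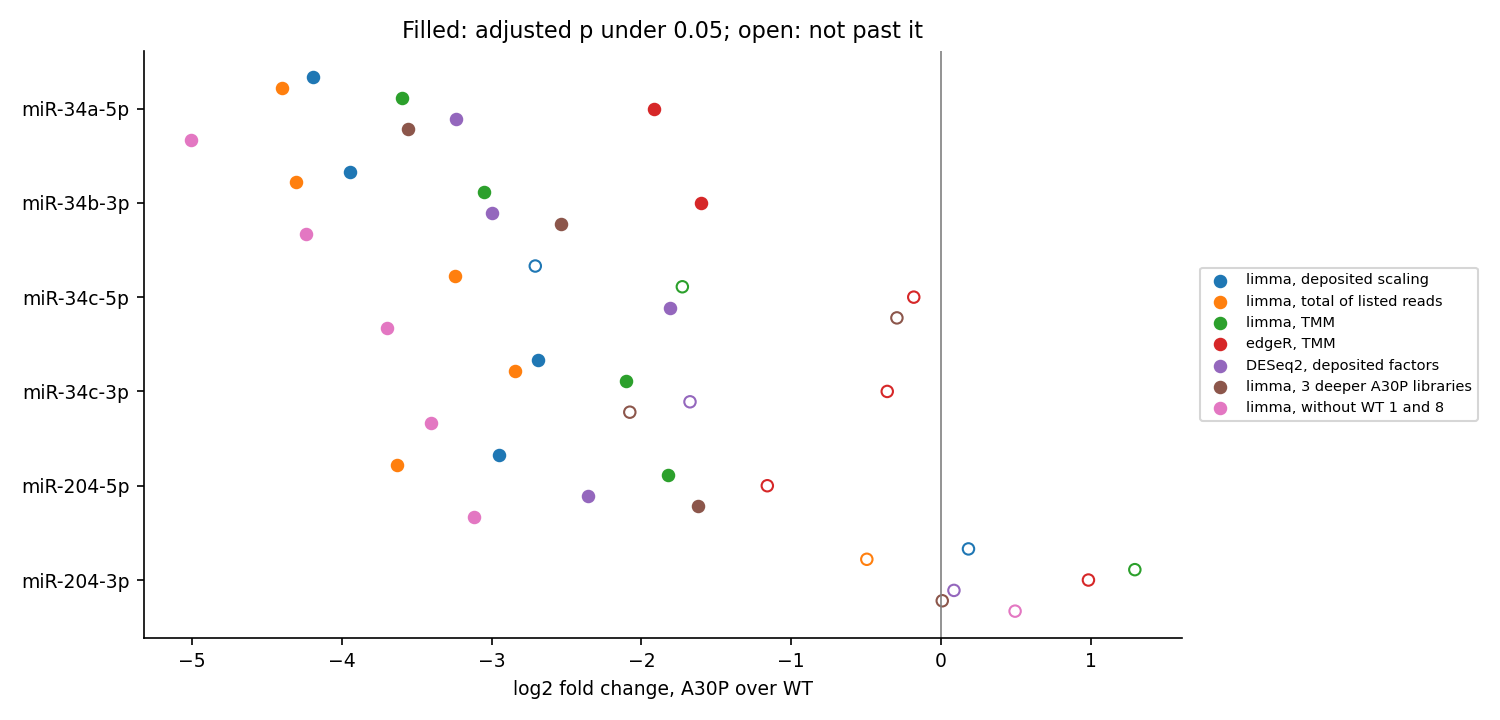
The plot gives the log2 fold change of each member, A30P over WT, under 7 fits, filled where the adjusted p was under 0.05 and open where it was not. miR-34a-5p and miR-34b-3p are filled throughout, miR-34c-5p runs from -3.70 to -0.18, and miR-204-3p lies on both sides of 0.

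Shares of all listed reads do not use the size factors. miR-204-5p made up 0.144% to 0.408% of listed reads in WT and 0.00366% to 0.120% in A30P, and its groups did not overlap, a separation shown in this direction by 30.8% of all miRNAs. Its mean share was 0.220% in WT and 0.0328% in A30P (exact permutation test, two-sided, p = 0.000311, the smallest that the 6435 splits allow; adjusted over all miRNAs p = 0.000932). Among the 6 tests miR-34a-5p (0.00526% and 0.000208%, exact permutation p = 0.000932) and miR-34b-3p (0.0172% and 0.00170%, exact permutation p = 0.000932) were also lower, and so was miR-34c-3p (0.00175% and 0.000196%, exact permutation p = 0.0112). miR-34c-5p (0.0487% and 0.0121%, exact permutation p = 0.0575) and miR-204-3p (0.0172% and 0.0106%, exact permutation p = 0.235) did not pass. By this test 71.5% of all miRNAs were lower in A30P, so again 4 of 6 is near the background. Without WT replicate 3, the highest WT library for miR-34b-3p, its difference of -0.0155 percentage points became -0.00973 (exact permutation p = 0.00175). When the abundant miR-148a-3p and miR-151-3p were left out of the total, the mean share of miR-204-5p was 0.222% in WT and 0.0662% in A30P (exact permutation p = 0.000311). The other members' p-values were larger there than with the full total, apart from miR-204-3p, given further on. By exact permutation they were 0.00280 for miR-34a-5p, 0.0308 for miR-34b-3p, 0.0242 for miR-34c-3p and 0.236 for miR-34c-5p.

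The reads that each A30P library would have held at the mean WT share show where depth limits the comparison. Such expectations rest on the total of listed reads, which other miRNAs also fill. Mean normalized counts of miR-148a-3p were 4961 in WT and 461355 in A30P, and those of miR-151-3p were 3134 and 323037. The part of these miRNAs in the shortfalls below was not tested. For miR-204-5p 9889 reads were expected over the 7 A30P libraries and 4551 were found, with fewer than expected in 7 of 7. In A30P replicate 6, the library with the most reads, 4216 were found and 7686 expected. In the shallowest, replicate 4, 1 read was found and 47.7 were expected. miR-34b-3p had 183 reads against 774 expected, again fewer in 7 of 7 libraries, and miR-34a-5p had 51 against 237. miR-34c-5p had 1911 against 2195, and in replicate 6 its 1808 reads exceeded the 1706 expected, while replicates 3 and 8 held 41 and 56 against 173 and 215. For miR-34c-3p only 3 A30P libraries had an expectation of 3 reads or more, so its absence of reads in the other 4 was not informative at this depth.

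The balance of the miR-204 strands differed between the groups, in a comparison chosen after the values were seen. The hairpin shown above gave mainly its 5p strand in WT, at 93.9% to 96.6% of miR-204 reads in 6 libraries and at 82.8% and 87.5% in replicates 1 and 8. In A30P replicate 6 it was 94.8% (95% Wilson interval 94.1% to 95.4%). In A30P replicates 3 and 8 it was 73.1% (66.5% to 78.8%) and 72.6% (66.6% to 77.9%), and in replicates 1 and 2 it was 43.8% (23.1% to 66.8%) and 62.5% (38.6% to 81.5%) of 16 reads each. Replicates 4 and 7 held 4 reads and 2 reads. The intervals cover counting error only.

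On the log2 scale the 5p over 3p ratio was 3.97 ± 0.95 in WT (SD, n = 8) and 1.47 ± 1.68 in the A30P libraries with at least 10 miR-204 reads (SD, n = 5), a difference of -2.50 (exact permutation test, two-sided, p = 0.00932, against a smallest possible p of 0.00155). With at least 50 reads, which leaves 3 A30P libraries, the difference was -1.64 (exact permutation p = 0.0727). The ratio moved with depth inside WT alone: r with log10 listed reads was 0.978 (exact permutation p = 0.00174, adjusted 0.00868 over 10 relations), Spearman rho was 0.881 (exact p = 0.00724, adjusted 0.0362), and r without the 2 libraries farthest from the median depth was 0.757. The part of depth in the difference between genotypes was not tested. Among 93 hairpins with both strands listed, the 5p log2 fold change minus the 3p one was -3.13 for miR-204 and more negative for 12 others. The median over the 93 was -0.15, with a range from -10.46 to 7.67.

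**Figure D3:**
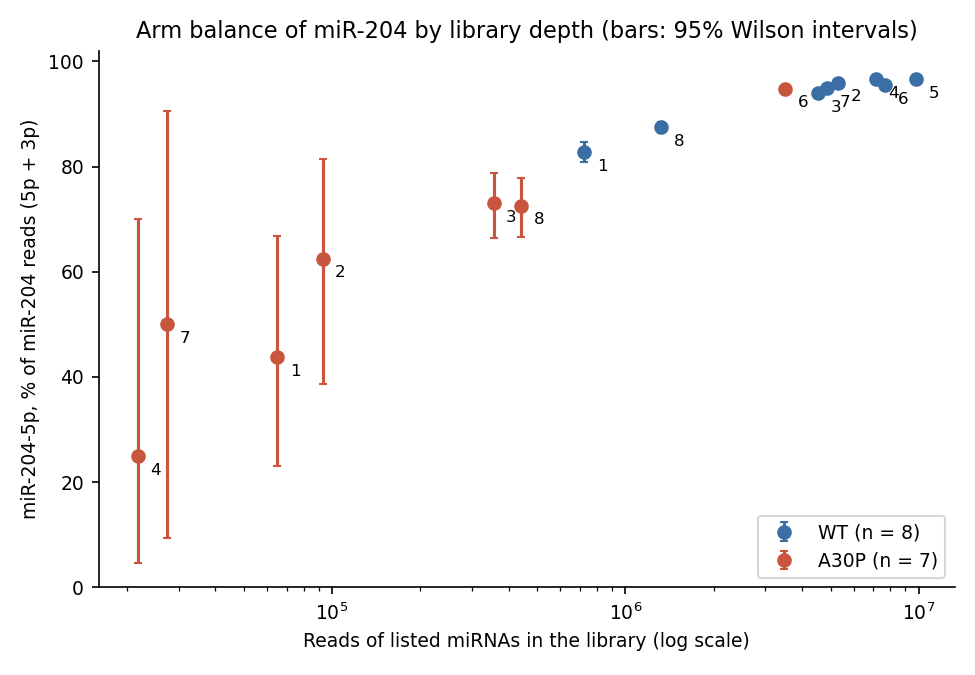
The share of miR-204 reads that came from the 5p strand (in %, with 95% Wilson intervals) is plotted against the reads of listed miRNAs in each library on a log axis, for WT (blue) and A30P (red) libraries labelled by replicate. The share is highest in the deepest libraries of both groups and lower in WT replicates 1 and 8 and in all A30P libraries but replicate 6.

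The miR-34c strands did not show that pattern. In WT the 5p strand held 91.8% to 100% of miR-34c reads, and the log2 ratio of 5p over 3p was 4.75 ± 0.77 (SD, n = 8). In the 3 A30P libraries with at least 10 miR-34c reads the ratio was 6.14 ± 0.83 (SD, n = 3), a difference of 1.39 (exact permutation test, two-sided, p = 0.0485, smallest possible 0.0121). That difference rests on A30P replicates 3 and 8, with 41 and 56 reads of the 5p strand and 0 of the 3p strand, where the WT ratio would give 1.44 and 1.97 reads. Its p passed 0.05 in only 1 of the 11 repeats that left out a library, the one without A30P replicate 6 (1.85, exact permutation p = 0.0444). With a minimum of 1 read the difference was -0.05 (exact permutation p = 0.928), and without WT replicates 1 and 8 it was 1.27 (exact permutation p = 0.0714). At the pseudocount of 1 both strands of miR-34c had about the same log2 fold change between genotypes by limma, differing by -0.02. That likeness depends on the pseudocount. With 0.1 the 5p strand had -3.65 and the 3p strand -5.01, and with 10 they had -1.82 and -0.92.

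Covariation over the 8 WT libraries was computed for all 15 pairs of members on log2(value + 1). On this scale the arms of the miR-34b/34c cluster correlated positively with miR-204-5p, which comes from another chromosome. miR-34c-5p and miR-34c-3p, strands of 1 hairpin, had r = 0.938 (exact permutation p = 0.000496, adjusted 0.00620 over the 15 pairs, rho = 0.929, exact p = 0.00223), and r = 0.871 without the 2 libraries farthest from the median of miR-34c-5p. miR-34b-3p and miR-204-5p had r = 0.928 (exact permutation p = 0.00486, adjusted 0.0182, rho = 0.810, exact p = 0.0218), and 0.721 without the 2 farthest. miR-34c-5p and miR-204-5p had r = 0.793 (exact permutation p = 0.00124, adjusted 0.00620, rho = 0.905, exact p = 0.00456), and 0.815 without the 2 farthest. Against 306 miRNAs with reads in every WT library and a WT mean of at least 10, miR-34c-5p had a median r of 0.776. That median was 0.499 for miR-204-5p and 0.409 for miR-34b-3p. The r of 0.793 is thus near the median of miR-34c-5p and above that of miR-204-5p.

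The other pairs that passed were miR-34c-3p with miR-204-5p (r = 0.770, exact permutation p = 0.000893, adjusted 0.00620, rho = 0.976, exact p = 0.000397, 0.954 without the 2 farthest) and miR-34b-3p with miR-34c-3p (r = 0.785, exact permutation p = 0.00838, adjusted 0.0251, rho = 0.833, exact p = 0.0154, 0.745 without the 2 farthest). miR-34a-5p, which is made apart from the cluster, passed with none of the others after adjustment. Its r was 0.784 with miR-34c-5p (exact permutation p = 0.0316, adjusted 0.0678, rho = 0.690, 0.338 without the 2 farthest) and 0.723 with miR-34c-3p (exact permutation p = 0.0513, adjusted 0.0962), values of the size of some pairs that passed. With miR-204-5p its r was 0.444 (exact permutation p = 0.232, rho = 0.738, exact p = 0.0458). The 2 strands of miR-204 had r = 0.232 (exact permutation p = 0.621, rho = -0.05, 0.935). By rank, 3 of the 5 pairs passed after adjustment, while miR-34b-3p with miR-204-5p (adjusted p of rho 0.0653, exact permutation) and with miR-34c-3p (adjusted p of rho 0.0577, exact permutation) did not. These relations depend on the scale and on the 2 shallow libraries: of the 15 pairs, 5 passed as above, 0 passed with log2 shares of listed reads and 1 passed without WT replicates 1 and 8, that of miR-34c-3p and miR-204-5p. In A30P the only pair with reads in every library was miR-204-5p with miR-204-3p (r = -0.19, exact permutation p = 0.667, rho = -0.25, exact p = 0.595, r = -0.38 without the 2 farthest, n = 7).

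Depth in WT moved with part of this pattern. The level of miR-34a-5p had r = 0.828 with log10 listed reads (exact permutation p = 0.0236, adjusted 0.0787), that of miR-34c-5p r = 0.820 (exact permutation p = 0.0386, adjusted 0.0899) and that of miR-34c-3p r = 0.729 (exact permutation p = 0.0585). miR-34b-3p and miR-204-5p had 0.262 and 0.396, and miR-204-3p had -0.78 (exact permutation p = 0.0449, adjusted 0.0899). By rank the relation was weaker for miR-34c-5p (rho = 0.381, exact p = 0.360) and miR-34c-3p (rho = 0.429, exact p = 0.299). Without the 2 libraries farthest from the median depth r turned to -0.25 for miR-34c-5p, -0.28 for miR-34c-3p, -0.73 for miR-34b-3p and -0.51 for miR-204-5p, so the positive values rest on those libraries. It stayed at 0.530 for miR-34a-5p and at -0.68 for miR-204-3p. Over the 373 miRNAs with reads in every WT library the median r with depth was 0.696, so the values of miR-34b-3p and miR-204-5p are lower than that median and those of miR-34a-5p and miR-34c-5p are not.

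Among 306 miRNAs with reads in every WT library and a WT mean of at least 10, the miRNAs most like each member were named by Pearson r over the 8 WT libraries, as a description. For miR-34b-3p they were miR-7a-2-3p (0.936), miR-204-5p (0.928) and miR-375-3p (0.904), the 3 that exceeded 0.9. For miR-204-5p they were miR-7a-2-3p at 0.931, then miR-34b-3p at 0.928 and miR-1264-3p at 0.914, again with 3 over 0.9. miR-34c-5p was most like miR-7b-5p (0.987), miR-7a-5p (0.983) and miR-335-3p (0.982), with 63 over 0.9. miR-34a-5p was most like miR-151-5p (0.988), miR-181b-5p (0.983) and miR-93-5p (0.981), with 101 over 0.9. For miR-204-3p they were miR-342-5p (0.912), miR-672-5p (0.910) and miR-92b-5p (0.898), with 2 over 0.9. The profiles of miR-34b-3p, miR-204-5p and miR-204-3p were thus shared by few miRNAs, and those of miR-34a-5p and miR-34c-5p by many.

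A single WT library, replicate 3, stood out for several members. It was the highest WT library for 5 of the 6 members, all but miR-34a-5p, while it was the highest for 11.3% of the 373 miRNAs. Relative to the median of the other 7 WT libraries it held 7.14 times the miR-34b-3p, 6.53 times the miR-34c-5p, 4.54 times the miR-34c-3p, 3.28 times the miR-204-3p and 2.70 times the miR-204-5p. miR-34a-5p was at 0.753 times. Across the 373 miRNAs the median of that ratio was 1.14, and 14.5% had a ratio over 2. For miR-204-3p the lead of WT replicate 3 was narrow, at 217 against 215 in WT replicate 1. For miR-34c-3p it was 32.4 against 31.2 in WT replicate 4. By share of listed reads miR-204-3p was higher in WT replicates 1 and 8 (0.0368% and 0.0342%) than in WT replicate 3 (0.0265%).

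Part of the choroid and epithelial list was also highest in WT replicate 3. Of its 12 miRNA names, 5 were listed, with 8 arms (miR-448, miR-1298 and miR-1264, which lie within the serotonin receptor gene Htr2c on chromosome X, and miR-200b and miR-203 of epithelia), and WT replicate 3 was the highest WT library for 5 of the 8. miR-1298-5p had 3849 normalized counts in WT replicate 3 and 217 to 607 in the other WT libraries. miR-448-3p had 120 there and 0.806 to 37.5 elsewhere, and miR-1264-3p had 298 and 12.2 to 99.5. Other arms were not raised there: miR-203-3p was at 0.817 times the median of the other WT libraries, and miR-1298-3p, the opposite strand of miR-1298-5p, at 1.14 times. The summed level of the 8 arms ran from 328 to 4406 in WT and from 502 to 4343 in A30P. Most of both highest sums was miR-1298-5p, at 3849 in WT replicate 3 and 3980 in A30P replicate 8. Whether the content of choroid plexus or ependyma in the dissected tissue differed between libraries was not measured, and its part in the covariation was not tested.

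**Figure D4:**
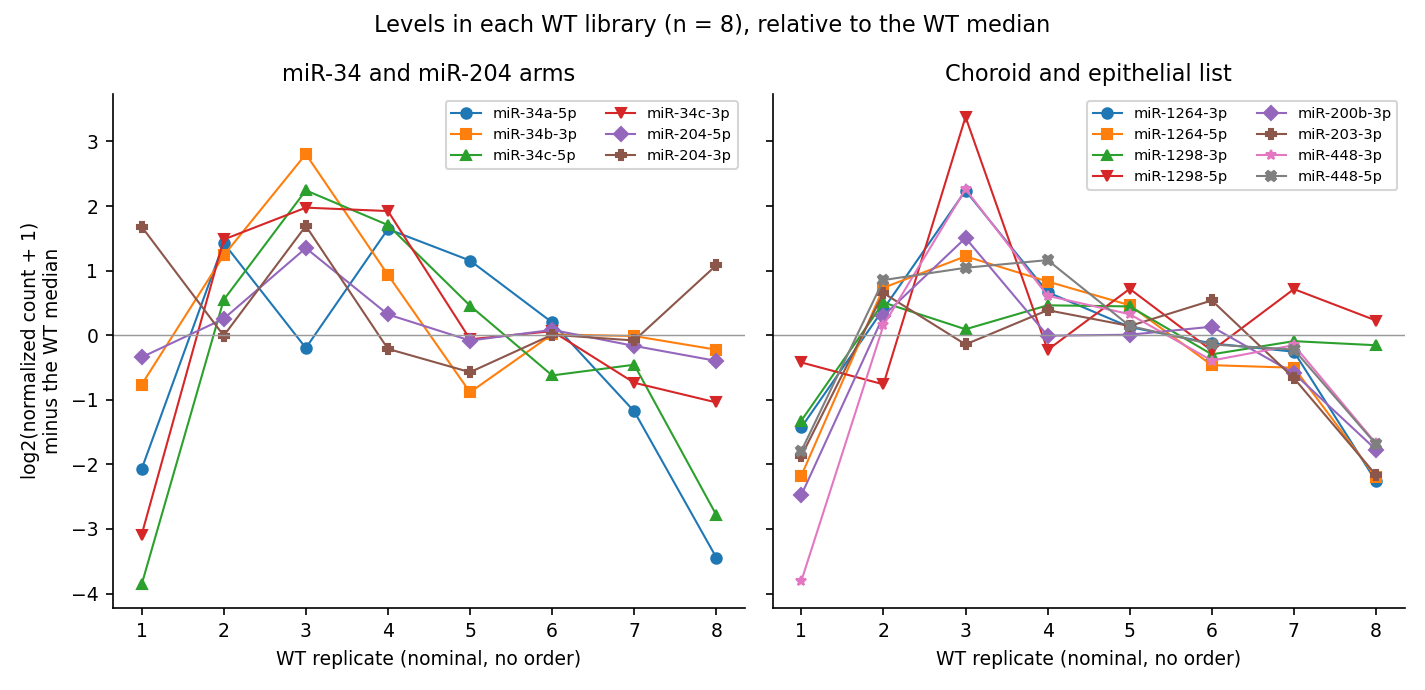
For each WT library (n = 8, replicate numbers have no order) the plot gives log2(normalized count + 1) minus the WT median, for the 6 members on the left and the 8 arms of the choroid and epithelial list on the right. Replicate 3 is the peak of most lines in both panels, and replicates 1 and 8, the shallowest, are the lowest points of miR-34a-5p, miR-34c-5p and miR-34c-3p and of most list arms, but not of miR-204-3p.

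In A30P, replicate 8 was the highest library for 4 of these 8 arms. Its miR-1298-5p reached 3980 normalized counts, against at most 734 in the other A30P libraries, its miR-448-3p 41.2 against at most 16.2, and its miR-1264-3p 15.4 against at most 2.26. In the same library miR-204-5p (443) and miR-34c-5p (144) were second only to replicate 6 within A30P, its miR-34b-3p (20.6) came after replicates 4 and 6, and miR-34a-5p and miR-34c-3p had 0 reads. This is also the second deepest A30P library, and the part of depth in these ranks was not tested. Its miR-204-5p lay below every WT library and its miR-34c-5p below the WT median. The level of miR-204-5p in A30P replicate 8 thus lay under that of WT replicate 3 (3338). So did miR-1264-3p (15.4 against 298) and miR-448-3p (41.2 against 120). The level of miR-1298-5p was close to that of WT replicate 3 (3980 against 3849), and that of miR-1298-3p was above it (306 against 40.4).

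Marker lists of other cell types were read beside the members, since their content moves with any dissection. By limma the choroid and epithelial list had 1 arm higher, 6 lower and 1 not past the threshold, with a median log2 fold change of -2.54, which became 0.33 over the 5 arms tested by edgeR with TMM scaling (2 higher, 2 lower). Its named arms were miR-1264-3p (-5.09, adjusted p = 1.2e-05 by limma) and miR-203-3p (-4.49, adjusted p = 1.6e-05 by limma). The 1 arm that was higher was miR-1298-3p (2.15, adjusted p = 0.00342 by limma). The 8 p53-linked arms other than the members had 1 higher, 6 lower and 1 not passed (median -3.76), among them miR-103-3p (-4.11) and miR-107-3p (-5.61), which both fell. In edgeR that list's median was -1.28, with 1 higher and 4 lower of 8.

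The neuron list had 2 arms higher, 15 lower and 7 not passed of 24 (median -2.62, in edgeR -0.60 with 3 higher and 5 lower of 20). It included miR-128-3p (-3.14) and miR-434-3p (-5.76), both lower, and miR-485-5p (2.80) and miR-129-5p (1.06), both higher. Its summed level was 88533 to 107461 in WT and 30647 to 85721 in A30P. The oligodendrocyte list had 3 of 5 lower and 0 higher (median -4.46, in edgeR -1.06 with 2 lower of 5), led by miR-338-5p (-5.87) and miR-338-3p (-4.93). Its miR-219a-2-3p, with means of 4932 in WT and 3177 in A30P, did not pass (-0.73, adjusted p = 0.0593 by limma). The microglia and leukocyte list had 6 names, of which only 2 arms were listed. Both of them, miR-150-5p (-5.84) and miR-146a-5p (-4.35), were lower (in edgeR also 2 of 2). The endothelium and mural cell list had 2 higher, 5 lower and 1 not passed of 8 (median -2.54, in edgeR -0.57 with 2 higher and 1 lower), with miR-10a-5p higher (2.31) and miR-126a-3p lower (-2.42). The erythroid list had 1 higher and 2 lower of the 3 arms counted (median -1.99, in edgeR 1.68 over 2 arms with 1 higher), with miR-451a higher (2.03, adjusted p = 0.0327 by limma) and miR-486a-3p lower (-2.78). The joint entry of miR-486b-5p and miR-486a-5p, whose names are on that list, was left out of these counts and medians. It had means of 634 in WT and 432 in A30P and did not pass (-0.40, adjusted p = 0.471 by limma). All 7 lists thus held falls by limma, as did the members, against a background of 71% lower. In edgeR the background was 35.5% lower and 19.5% higher of the 318 miRNAs tested.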

How the data were processed

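Midbrain RNA of 15 samples was profiled. Per the labels' protocols, small RNA libraries came from a TruSeq kit after Trizol extraction, whereas NEB opens each column name per the file headers, so the kit is uncertain. The submitters' processing notes name DESeq, without a version, and the build mm9. No label, note or header used here names the aligner, counter or annotation.

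The deposited signal values are read counts after division by library size factors, which the authors applied. Columns named CT were read as WT. In each library the values were whole multiples of 1 step (100% within 1e-05), which was taken as 1 read. In 9 of the 15 libraries low values were too few, or the lowest value stood for several reads, so there the step rests on a search and is less sure. The authors' log2 fold changes, p-values and adjusted p-values are printed only where their table is named, and the deposited group means, whose scale (a score here) is not stated, were not used.

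The main test was limma 3.58.1 (trend, robust, R 4.3.3) on log2(value + 1). The filter asked that the mean reach 1 in WT or in A30P, and all 396 miRNAs passed it, with Benjamini-Hochberg adjustment over all of them and a threshold of 0.05. For low miRNAs, fold changes on that scale reflect the pseudocount where an A30P library has no reads. edgeR 4.0.16 and DESeq2 1.42.0 were run on the recovered counts as alternatives, and their falls were smaller. miR-34a-5p had -4.19 by limma, -3.24 in DESeq2 and -1.91 in edgeR. The median of the miRNAs tested was -2.57 by limma, -1.57 in DESeq2 and -0.75 in edgeR. Shares, strand ratios (0.5 reads added to each strand) and correlations used exact permutations (Python 3.11.15, numpy 2.4.6, scipy 1.17.1, pandas 2.3.3, matplotlib 3.10.9). The fits were also run on simulated counts with as many rises as falls, unlike these data. No result here rests on that run.

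The members, the 7 marker lists and the tests were chosen with earlier results of these data known. Named besides the members are the 3 miRNAs most like each member and up to 2 arms per list by smallest p, with a mean of at least 10. miR-1298-5p, miR-1298-3p, miR-448-3p, miR-148a-3p and miR-151-3p were named after their values were seen. So were miR-219a-2-3p, miR-485-5p, miR-129-5p and the joint entry of miR-486b-5p and miR-486a-5p.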

Additional observations from a re-analysis of the deposited data

Results flagged for a closer look

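Within each genotype the highest and lowest library of every member was compared with its nearest neighbour, for normalized counts and for shares of listed reads. Of 24 such groups, 10 had a library farther from the rest than the 95% limit of Dixon's test allows, where chance flags about 1 in 20. That rate does not apply to 4 of the 10, those of miR-34a-5p and miR-34c-3p in A30P, where the other 6 libraries are all at 0 and any read gives a flag. Counts and shares of the same library are also not separate tests. They fall on 2 libraries. WT replicate 3 was high for miR-34b-3p (470 normalized counts, 0.0574% of listed reads) and for miR-204-5p (3338 normalized counts, 0.408%). A30P replicate 6, the deepest of its group, was high for miR-34a-5p (8.88 normalized counts, 0.00146%) and miR-34c-3p (8.36 normalized counts, 0.00137%), each the only A30P library with reads of that arm. It was also high in share of listed reads for miR-34c-5p (0.0517%) and miR-204-5p (0.120%).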

How the results depend on the processing

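The members' calls depend on how depth is treated. Over all miRNAs 314 were called by limma and 175 by edgeR with TMM scaling, 299 to 325 without 1 library. Higher calls made up 10.5% of calls by limma, 35.4% in edgeR and 19.7% in DESeq2. Of 329 values of results that answer a comparison, 294 were taken as kept. For a single effect that means the same direction and the same side of the threshold. For a count of calls it means a number near the main one, where 238 in DESeq2 beside 314 was taken as near.

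For miR-34c-5p the log2 fold change passed when values were scaled to the total (-3.25, adjusted p = 0.0197), in DESeq2 (-1.81, adjusted p = 0.0384) and without WT replicates 1 and 8 (-3.70, adjusted p = 0.0173), and ran from -3.27 to -1.89 without 1 library. miR-34c-3p did not pass in edgeR (-0.36), in DESeq2 (-1.68, adjusted p = 0.217) or without the 4 A30P libraries under 100000 reads (-2.08). miR-204-5p missed the threshold in edgeR (-1.16), and miR-204-3p turned negative with scaling to the total (-0.50). Without 1 library the limma values ran from -4.66 to -3.91 for miR-34a-5p, from -4.50 to -3.53 for miR-34b-3p, from -3.15 to -2.42 for miR-34c-3p, from -3.28 to -2.64 for miR-204-5p and from 0.04 to 0.41 for miR-204-3p.

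Of the differences in share (percentage points), that of miR-204-3p turned to 0.0156 (exact permutation p = 0.0690) when miR-148a-3p and miR-151-3p were left out of the total. That of miR-34c-3p lost its call without the shallow A30P libraries (-0.00129, exact permutation p = 0.194). That of miR-34c-5p passed without WT replicates 1 and 8 (-0.0510, exact permutation p = 0.0117) and ran from -0.0432 to -0.0230 without 1 library, passing without WT replicate 1, WT replicate 8 or A30P replicate 6. The miR-34c strand difference was -0.0545, 1.36 and 1.27 with at least 1 read, at least 50 reads and without WT replicates 1 and 8, and 1.05 to 1.85 without 1 library. The miR-204 difference was -1.64 with at least 50 reads and -3.18 to -2.05 without 1 library.

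Of the 5 correlated pairs, 0 passed with shares and 1 without WT replicates 1 and 8. With shares r turned to -0.22 for miR-34a-5p and miR-204-5p. Without WT replicates 1 and 8 it turned to -0.0479 for miR-34a-5p with miR-34b-3p, -0.0502 for miR-34a-5p with miR-204-5p, 0.59 for miR-34c-5p with miR-204-3p and 0.52 for miR-34c-3p with miR-204-3p. The cause of these changes was not tested. The labels number replicates in both genotypes, but deviations of same-numbered samples correlated over 0.1 in only 2 of 7 pairs (-0.13 to 0.31), so the numbers were not taken to pair them. With the replicate number as a block miR-34a-5p had -3.98, miR-34b-3p -4.13, miR-34c-5p -2.59, miR-34c-3p -2.71, miR-204-5p -2.98 and miR-204-3p 0.04, and 296 miRNAs were called. The minimum mean and the pseudocounts of 0.1 and 10 changed no member's call, but the pseudocount moved the size of the fold change of miR-34a-5p (-6.94 and -1.84), miR-34b-3p (-5.41 and -2.34) and miR-34c-3p (-5.01 and -0.92) by over 1.5 times. It left that of miR-204-5p at -2.96 and -2.86.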
